A study of Saccharomyces cerevisiae with 8 samples.

Results

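The nuclear genes for the respiratory chain and ATP synthase of Saccharomyces cerevisiae were followed on 2-colour arrays of industrial and laboratory yeast at the start and after 6 h of a fermentation assay. Members were taken by gene name. They comprise the 3 NADH dehydrogenases NDI1, NDE1 and NDE2, 9 subunits of the cytochrome bc1 complex, 7 subunits of cytochrome oxidase other than the isoforms COX5A and COX5B, and 14 genes of the ATP synthase including its inhibitor INH1. These 33 genes were each found as 1 probe among the 6256 gene probes of the array, and all 33 passed the filter on dim probes, as did 5938 of the gene probes.

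Yeast has no proton-pumping NADH dehydrogenase. Single-subunit enzymes pass electrons from NADH to ubiquinone instead, Ndi1 from the matrix side and Nde1 and Nde2 from the cytosolic side of the inner membrane. The bc1 complex moves the electrons to cytochrome c, cytochrome oxidase hands them to oxygen, and the ATP synthase uses the proton gradient so formed. Each of the last 3 complexes also holds subunits encoded by mitochondrial DNA, which are not members here. In yeast, respiratory genes are known to be repressed by abundant glucose and to rise when glucose is used up, with the Hap2/3/4/5 complex as an activator.

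In every hybridisation the sample was labelled with Cy5 (red) and compared with RNA of the laboratory strain BY4741 at T0h, the start of the assay, labelled with Cy3 (green). A value below is the log2 of red over green unless stated otherwise, so 0 means the level of BY4741 at T0h. At T0h there was 1 array each of the industrial strains PE-2 (replicate 1), JP1 (replicate 2) and CAT-1 (replicate 3), which the labels describe as diploid isolates of sugarcane ethanol distilleries. After 6 h, T6h, JP1 was measured as replicates 1 and 4, CAT-1 as replicates 2 and 5, and BY4741, a strain with deletions of HIS3, LEU2, MET17 and URA3, as replicate 3. Cells of all strains had first been grown through repeated batches in rich glucose medium, and the labels do not give the composition of the assay medium. PE-2 was thus sampled at T0h alone, and BY4741 entered T0h as the reference channel alone. The series calls the arrays of a time biological replicates, so the spread between T0h arrays is also a spread between strains.

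Both JP1 replicate 4 and CAT-1 replicate 5 lay on another slide with another scan than the other 6 arrays. Green spots well above background made up 89.0 to 90.8% on the 6 arrays of slide 1 but 17.5 and 9.63% on the slide 2 arrays. Red spots well above background made up 79.8 to 97.7% on all arrays, with median red signals from 60 to 1360. For all 33 members the red signal was well above background in both spots on each of the 8 arrays, and none was saturated. Their green signal was well above background in both spots for 33 members on slide 1, for 31 on JP1 T6h replicate 4 and for 29 on CAT-1 T6h replicate 5. The 4 deleted genes lay between -0.19 and 0.02 on the BY4741 T6h array and between 0.77 and 8.89 on the industrial arrays. The deposited value table, by contrast, did not follow its labels: its columns for JP1 and CAT-1 at T0h correlated at 0.9998 with the T6h scanner files of JP1 replicate 1 and of CAT-1 replicate 2. Among the scanner files themselves, JP1 T6h replicate 1 correlated at 0.793 with JP1 T6h replicate 4 and at 0.302 with JP1 T0h, and CAT-1 T6h replicate 2 at 0.777 with CAT-1 T6h replicate 5 and at 0.153 with CAT-1 T0h. The scanner files were used throughout, and counts without these arrays stand beside the results.

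At T6h the transcripts of all 4 groups were lower than at T0h. Over the 8 arrays, 31 of the 33 members fell and 0 rose (limma, adjusted p under 0.05), where 5.93% of all genes tested were called lower. The median difference over the members was -1.93 on the log2 scale, with a range from -3.32 for COX4 to -0.99 for NDI1, against 0.00 over all genes tested. In 32 members every T6h array lay below every T0h array, which held for 11.8% of all genes, and QCR8 was the exception. For 32 members the difference was at least 2-fold and for 15 it was at least 4-fold. A lower ratio in RNA of a whole culture cannot tell fewer cells with the transcript apart from less transcript per cell.

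**Figure D1:**
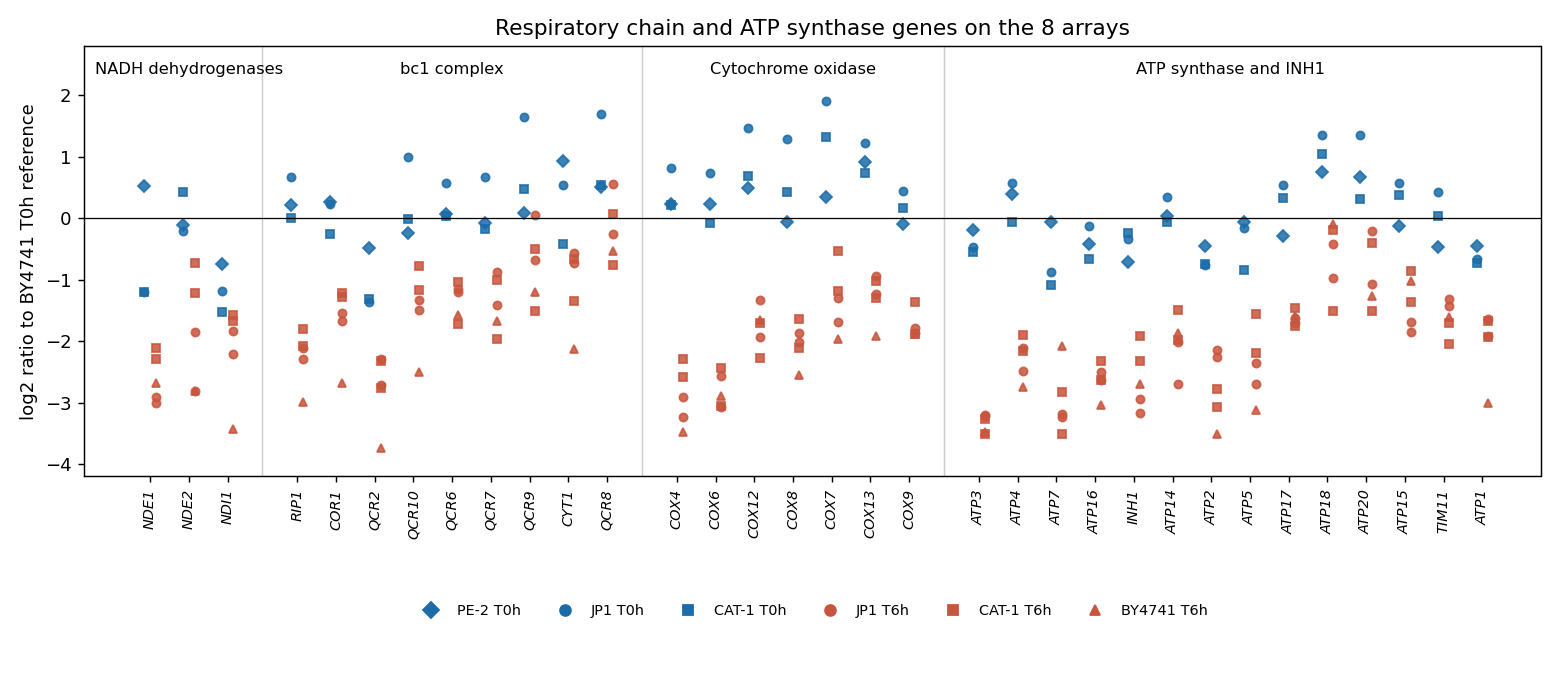
Log2 ratio to the BY4741 T0h reference (vertical axis) of each of the 33 genes (horizontal axis) on each of the 8 arrays, with 1 point per array, blue for T0h and red for T6h, and a marker shape per strain. In all genes but QCR8 the 5 red points lie below the 3 blue points, and the fitted difference ranges from -0.99 in NDI1 to -3.32 in COX4.

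The count of members called lower varied with the arrays used. Without JP1 T6h replicate 1 it was 32, and without CAT-1 T6h replicate 2 it was 30. On slide 1 alone 27 were lower, and 29 with the slide as a block. The lowest count on leaving out 1 array, 23, came without JP1 T0h replicate 2, where NDE2, QCR7, QCR9, QCR10, CYT1, ATP1, ATP18 and ATP20 missed the threshold. Without PE-2 T0h replicate 1 the members that missed it beside NDI1 and QCR8 were NDE2, QCR2, CYT1 and ATP1, and without CAT-1 T0h replicate 3 they were NDE2, QCR9 and ATP1. In the red channel alone, which leaves out the green reference, 32 members were lower with a median of -2.22.

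The 3 NADH dehydrogenases started from different levels. NDE1 (YMR145C), one of the external enzymes, stood at 0.51 in PE-2, -1.20 in JP1 and -1.19 in CAT-1 at T0h. At T6h its ratio was -3.02 and -2.91 in JP1, -2.29 and -2.11 in CAT-1 and -2.69 in BY4741. All T6h values were thus below the T0h values, and NDE1 fell by 1.98 ± 0.41 (SE; adjusted p = 0.00789). NDE2 (YDL085W), its paralog, was near the reference at T0h, with -0.11 in PE-2, -0.20 in JP1 and 0.43 in CAT-1. After 6 h it measured -2.81 and -1.85 in JP1, -1.22 and -0.73 in CAT-1 and -2.81 in BY4741, and NDE2 fell by 1.92 ± 0.47 (adjusted p = 0.0182). The 2 CAT-1 arrays were the highest of the T6h arrays for this gene, and its green signal was not well above background on either slide 2 array.

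NDI1 (YML120C), the internal enzyme, was already below the reference at T0h, at -0.74 in PE-2, -1.18 in JP1 and -1.53 in CAT-1. At T6h it was -2.20 and -1.84 in JP1, -1.67 and -1.57 in CAT-1 and -3.42 in BY4741. The T6h values of CAT-1 lay next to its T0h value, and the BY4741 array was the lowest. The fitted difference of -0.99 ± 0.41 did not pass the test (adjusted p = 0.130), but it did in the red channel alone (-1.40, adjusted p = 0.0162).

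Among the 9 bc1 subunits 8 fell, with a median of -1.56. RIP1 (YEL024W), the Rieske iron-sulfur protein that carries electrons within the complex, differed most. Its ratio at T0h was 0.21 in PE-2, 0.67 in JP1 and 0.01 in CAT-1. At T6h it measured -2.11 and -2.29 in JP1, -1.81 and -2.08 in CAT-1 and -2.99 in BY4741, and RIP1 fell by 2.55 ± 0.31 (adjusted p = 0.000460). COR1 (YBL045C), a core subunit, stood at 0.26, 0.22 and -0.26 at T0h in PE-2, JP1 and CAT-1. It then measured -1.54 and -1.68 in JP1, -1.29 and -1.22 in CAT-1 and -2.69 in BY4741, and fell by 1.76 ± 0.35 (adjusted p = 0.00631). For both genes the groups were well apart and the BY4741 array was the lowest.

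QCR8 (YJL166W), a small subunit that contacts cytochrome b, had the smallest difference of the complex. It was above the reference at T0h, at 0.51 in PE-2, 1.69 in JP1 and 0.54 in CAT-1. At T6h it measured 0.55 and -0.26 in JP1, 0.07 and -0.76 in CAT-1 and -0.54 in BY4741. JP1 T6h replicate 1 overlapped with the T0h arrays, and the difference of -1.10 ± 0.38 missed the threshold (adjusted p = 0.0700). The differences of the other 6 subunits lay between -1.71 for the core subunit QCR2 and -1.43 for CYT1, the cytochrome c1 gene. Calls of 3 of these were lost on slide 1 alone, those of CYT1 (-1.47, adjusted p = 0.0975), QCR9 (-1.28, adjusted p = 0.115) and QCR10 (-1.79, adjusted p = 0.0546). Under median centring COR1, QCR2, QCR6, QCR7, QCR9 and CYT1 missed the threshold, with adjusted p from 0.108 to 0.247. Outside the bc1 complex, COX13, ATP1 and ATP2 lost their calls there.

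Cytochrome oxidase had the lowest median of the 4 groups, -2.58, and all 7 subunits fell. COX4 (YGL187C), which binds zinc and is needed for assembly of the enzyme, was at 0.23 in PE-2, 0.82 in JP1 and 0.21 in CAT-1 at T0h. Its T6h ratio was -2.91 and -3.23 in JP1, -2.29 and -2.58 in CAT-1 and -3.48 in BY4741. No T6h array came near the T0h arrays, and COX4 fell by 3.32 ± 0.32 (adjusted p = 8.41e-05). COX6 (YHR051W) followed with 0.23, 0.73 and -0.08 at T0h in PE-2, JP1 and CAT-1. At T6h the ratio was -2.57 and -3.07 in JP1, -2.43 and -3.06 in CAT-1 and -2.90 in BY4741. The strains were intermixed at T6h, and COX6 fell by 3.10 ± 0.29 (adjusted p = 5.82e-05).

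COX9 (YDL067C), a small membrane subunit, changed least within the enzyme. It was at -0.10, 0.44 and 0.17 in PE-2, JP1 and CAT-1 at T0h. Its T6h arrays measured -1.80 and -1.86 in JP1, -1.37 and -1.88 in CAT-1 and -1.88 in BY4741. CAT-1 replicate 2 was the highest of the T6h arrays, and COX9 fell by 1.93 ± 0.26 (adjusted p = 0.000777). The other 4, COX12, COX8, COX7 and COX13, lay between -2.66 and -2.24.

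All 14 ATP synthase genes fell, with a median of -2.06. ATP3 (YBR039W), the gamma subunit of the rotating central stalk, had T6h values close to each other. At T0h it was at -0.20 in PE-2, -0.48 in JP1 and -0.55 in CAT-1. At T6h it was at -3.21 and -3.22 in JP1, -3.52 and -3.26 in CAT-1 and -3.48 in BY4741, and ATP3 fell by 2.93 ± 0.24 (adjusted p = 3.15e-05). ATP4 (YPL078C), subunit b of the peripheral stalk, was at 0.40, 0.57 and -0.07 in PE-2, JP1 and CAT-1 at T0h. It measured -2.11 and -2.49 in JP1, -2.17 and -1.91 in CAT-1 and -2.74 in BY4741 at T6h, and fell by 2.58 ± 0.28 (adjusted p = 0.000228).

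ATP1 (YBL099W), the alpha subunit of the catalytic head, fell least in the enzyme. Its T0h ratios were -0.46, -0.67 and -0.74 in PE-2, JP1 and CAT-1. At T6h the 4 industrial arrays held together, at -1.91 and -1.64 in JP1 and -1.93 and -1.67 in CAT-1, while BY4741 lay apart at -3.01. ATP1 fell by 1.41 ± 0.33 (adjusted p = 0.0147), and without any 1 of the T0h arrays it missed the threshold, with adjusted p from 0.0533 to 0.0619. ATP2 (YJR121W), the beta subunit with the catalytic sites, fell by 2.09 ± 0.34 (adjusted p = 0.00207).

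INH1 (YDL181W) encodes the inhibitor that blocks ATP hydrolysis when the proton gradient fails. It was at -0.72, -0.34 and -0.23 in PE-2, JP1 and CAT-1 at T0h. At T6h it was at -3.16 and -2.95 in JP1, -1.92 and -2.33 in CAT-1 and -2.69 in BY4741. INH1 thus moved the same way as the enzyme it inhibits, by -2.18 ± 0.32 (adjusted p = 0.00130). The remaining ATP synthase genes ranged from -2.30 for ATP7, subunit d of the peripheral stalk, to -1.62 for TIM11, subunit e of the dimer interface. ATP20 was called over all arrays (-1.67), but missed the threshold on slide 1 alone (-1.41, adjusted p = 0.0503).

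The complexes were not equally far from the reference at each time. The median of the oxidase subunits was above that of the bc1 subunits by 0.16 in PE-2, 0.55 in JP1 and 0.44 in CAT-1 at T0h. At T6h it was below that of the bc1 subunits, by -0.60 and -0.52 in JP1 and -0.63 and -0.76 in CAT-1. On the BY4741 T6h array it remained above, by 0.17. The oxidase median also exceeded the ATP synthase median at T0h, by 0.39, 1.12 and 0.58 in PE-2, JP1 and CAT-1, and at T6h the difference lay between -0.16 and 0.43. These are medians of unequal numbers of genes within an array, and no test was made of them. Per complex, the mean of the array medians went from 0.63 ± 0.52 (SD, n = 3) at T0h to -1.89 ± 0.18 (SD, n = 5) at T6h for the oxidase. For the bc1 complex it went from 0.24 ± 0.37 to -1.42 ± 0.43, for the ATP synthase from -0.07 ± 0.15 to -2.10 ± 0.19 and for the NADH dehydrogenases from -0.83 ± 0.62 to -2.14 ± 0.62, over the same arrays.

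**Figure D2:**
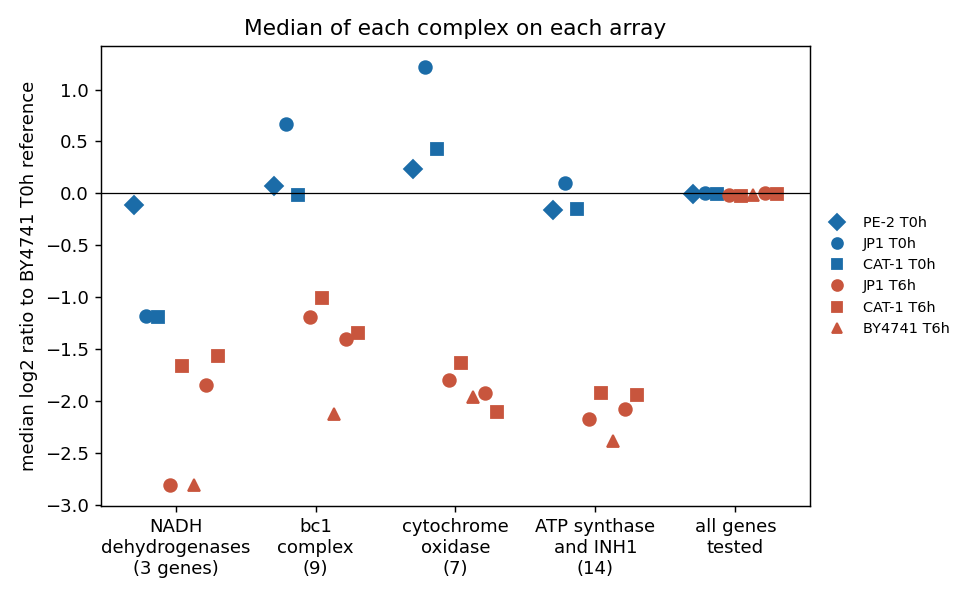
Median log2 ratio to the BY4741 T0h reference (vertical axis) of each complex and of all genes tested (horizontal axis) on each array, blue for T0h and red for T6h, with a marker shape per strain. The oxidase median is the highest of the 4 groups within each T0h array (0.23 in PE-2, 1.22 in JP1 and 0.42 in CAT-1), and its T6h medians lie between -2.11 and -1.64.

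Gene by gene, the members followed each other across the 8 arrays, with a median Pearson correlation of 0.874 over 528 pairs and a lowest of 0.340, as a description of arrays that share 1 reference. The T6h minus T0h difference had a Spearman correlation of 0.05 with the length of the gene and of 0.08 with the mean red signal, across the 33 genes. The 10 genes outside the set whose ratios were most like the mean of the members over the 8 arrays had Pearson correlations from 0.968 to 0.991. They were NTO1, SDH2, COX5A, NUP82, KGD4, RSM23, CAT8, TIM9, COX15 and YAP1. Of these 10, SDH2, COX5A and COX15 were on the lists of other respiratory genes used here. The rest were not, among them NTO1, the most alike at 0.991, NUP82 and YAP1. KGD4 encodes a subunit of the ketoglutarate dehydrogenase complex, RSM23 a mitochondrial ribosomal protein and CAT8 an activator of genes for growth without glucose.

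Restricting the comparison to JP1 and CAT-1, the strains sampled at both times, gave much the same picture. With strain as a term, 31 of the 33 members fell and 0 rose (limma, adjusted p under 0.05), against 6.96% of all genes called lower. Their median was -1.92, with -1.38 for the NADH dehydrogenases, -1.56 for the bc1 complex, -2.79 for the oxidase and -2.02 for the ATP synthase. The members that did not pass were NDI1 (-0.46 ± 0.31, adjusted p = 0.335) and CYT1 (-0.88 ± 0.32, adjusted p = 0.0823), while QCR8 did (-1.22 ± 0.37, adjusted p = 0.0408). The count rested on the T0h arrays, of which each strain had 1. Without JP1 T0h replicate 2, 16 members were called, and without CAT-1 T0h replicate 3, 23 were. It was 31 without JP1 T6h replicate 1, 29 without CAT-1 T6h replicate 2, 27 on slide 1 alone and 29 with slide as a block.

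JP1 and CAT-1 were not told apart in these genes. The T6h minus T0h difference was further below 0 in JP1 than in CAT-1 for 29 of the 33 members and for 3228 of all 5938 genes, with member medians of -2.27 and -1.79, and for all 7 oxidase subunits, with medians of -3.22 and -2.30. With median centring in place of loess, the median of the CAT-1 change minus the JP1 change went from 0.66 to 0.10 over the members and from 0.45 to -0.13 over the ATP synthase genes. The CAT-1 T6h arrays were also the dimmest, with a median red signal of the members of 208 and 239.75. On the JP1 T6h arrays it was 1922.5 and 1187.25, and the part of signal strength in the difference was not tested. In the test of this difference 0 members and 0 genes in all (0%) were called by limma, and 1 member, QCR10 (1.44 ± 0.60, adjusted p = 0.840), and 341 genes had an unadjusted p under 0.05. The level of CAT-1 minus that of JP1, with time as a term, was called for 0 members, where 0.101% of all genes were called. The member furthest apart was NDE2, at 1.11 ± 0.34 in CAT-1 above JP1 (adjusted p = 0.192), followed by QCR9, at -0.85 ± 0.35 (adjusted p = 0.288). These 2 were the members with an unadjusted p under 0.05, as had 903 of all genes. The red signal of NDE2 was low at T6h, at 58.5 and 86.2 in CAT-1 and 135.8 and 90.5 in JP1. The median red background of the CAT-1 T6h arrays was 21.

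At T0h the ratios of the industrial strains to BY4741 were already away from 0 in some members. The mean of the PE-2, JP1 and CAT-1 arrays was tested against 0, the level of the reference, which leaves out the spread of BY4741 itself. With the sample in Cy5 on every array, a dye effect on a gene cannot be told apart from a strain difference. By this test 6 members were higher and 4 lower than BY4741, 10 of 33 in all, where 32.7% of all genes were called in either direction. The share among the members was thus near the background. The median over the members was 0.19, with -0.63 for the NADH dehydrogenases, 0.24 for the bc1 complex, 0.55 for the oxidase and -0.18 for the ATP synthase, the last of which was 0.00 under median centring.

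COX7 (YMR256C), an oxidase subunit, was the furthest above the reference, at 0.34 in PE-2, 1.91 in JP1 and 1.32 in CAT-1, with a mean of 1.19 ± 0.29 (adjusted p = 0.0249). Its strains differed widely, and at T6h it was at -1.30 and -1.68 in JP1, -0.53 and -1.19 in CAT-1 and -1.96 in BY4741. ATP18 (YML081C-A), subunit i/j of the membrane part of the ATP synthase, was at 0.75, 1.36 and 1.05 in PE-2, JP1 and CAT-1, a mean of 1.05 ± 0.18 (adjusted p = 0.00801). At T6h it measured -0.41 and -0.98 in JP1, -0.19 and -1.52 in CAT-1 and -0.09 in BY4741, so that BY4741 was the highest of the T6h arrays. The other members called higher were COX13 at 0.96, QCR8 at 0.92, COX12 at 0.88 and ATP20 at 0.78.

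NDI1 was the furthest below the reference, with a mean of -1.15 ± 0.20 (adjusted p = 0.00799) over the T0h values given above. QCR2 (YPR191W), a core subunit of the bc1 complex, was at -0.48 in PE-2, -1.37 in JP1 and -1.32 in CAT-1, a mean of -1.06 ± 0.22 (adjusted p = 0.0142). ATP2 at -0.66 ± 0.16 and ATP1 at -0.62 ± 0.16, the subunits of the catalytic head, were the others called lower (adjusted p = 0.0232 and 0.0264). No member was called without CAT-1 T0h replicate 3, which left 2 arrays, and 3 higher and 2 lower were called without JP1 T0h replicate 2.

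**Figure D3:**
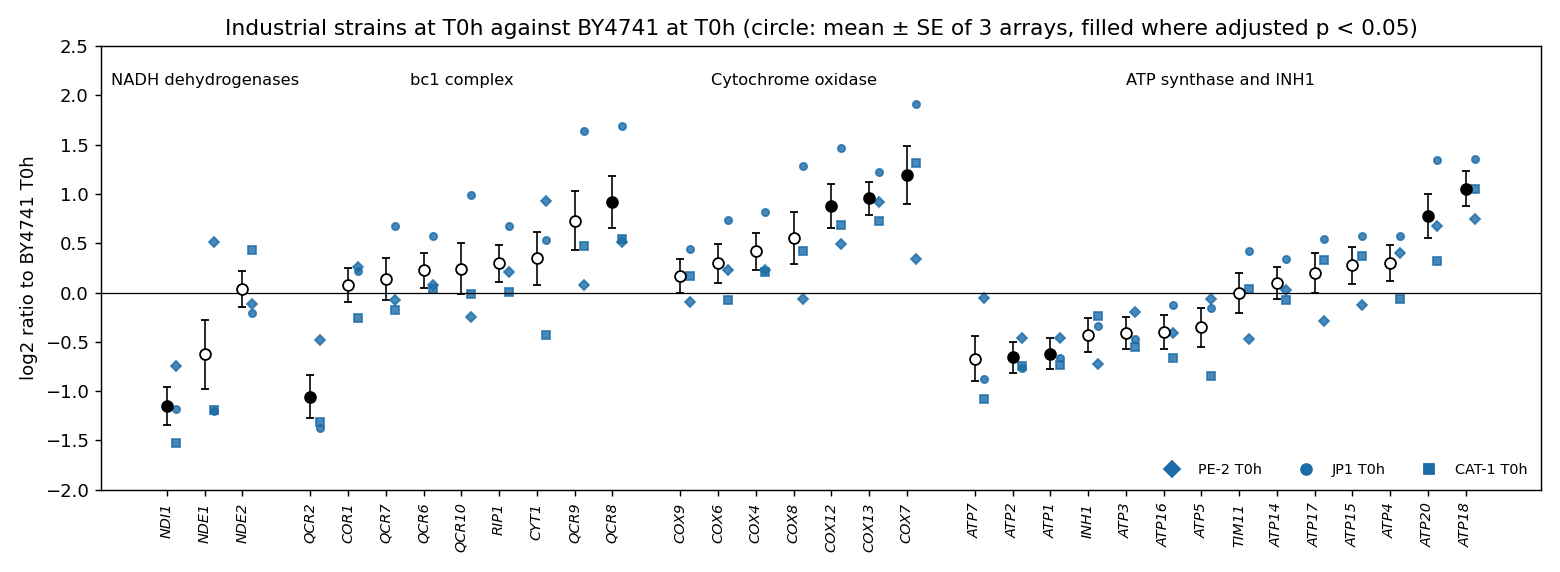
Log2 ratio of the industrial strains to BY4741 at T0h (vertical axis) for each of the 33 genes (horizontal axis, ordered within each complex), with the mean and SE of 3 arrays as circles, filled for the 10 genes that passed the test, and the single arrays as coloured markers. The oxidase genes all have a mean above 0, and JP1, the round marker, is the highest array for each of them.

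JP1 was the highest of the 3 T0h arrays for all 7 oxidase subunits and for 21 of the 33 members, against 35.1% of all genes. The 15 members from genes shorter than 400 bp had a T0h median of 0.28 and the 18 longer ones one of -0.16. Over all genes tested with a length the corresponding medians were 0.18 and -0.02. The array probes were used on strains other than the laboratory strain, and the part of sequence differences under the probes in these ratios was not tested.

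After 6 h the laboratory strain was compared with JP1 and CAT-1. Its single array had each member below its own T0h reference, from -3.74 for QCR2 to -0.09 for ATP18, with a median of -2.50 and with no replicate. The mean of the 4 industrial T6h arrays was above BY4741 for 26 of 33 members, by a median of 0.52, but 0 members and 0 of all genes (0%) were called by limma. An unadjusted p under 0.05 was reached by 7 members and by 894 of all genes. The largest difference was that of NDI1, at 1.60 ± 0.45 (adjusted p = 0.143). The lone BY4741 array is assumed to vary like the others in this test. The genes deleted in BY4741 missed the threshold too, at differences from 2.02 to 6.86, so the test cannot decide on the members. BY4741 was lower than all 4 industrial T6h arrays for 16 members, 48.5%, which held for 28.3% of all genes. By complex these were 5 of 9 bc1 subunits, 5 of 7 oxidase subunits, 5 of 14 ATP synthase genes and 1 of 3 NADH dehydrogenases.

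**Figure D4:**
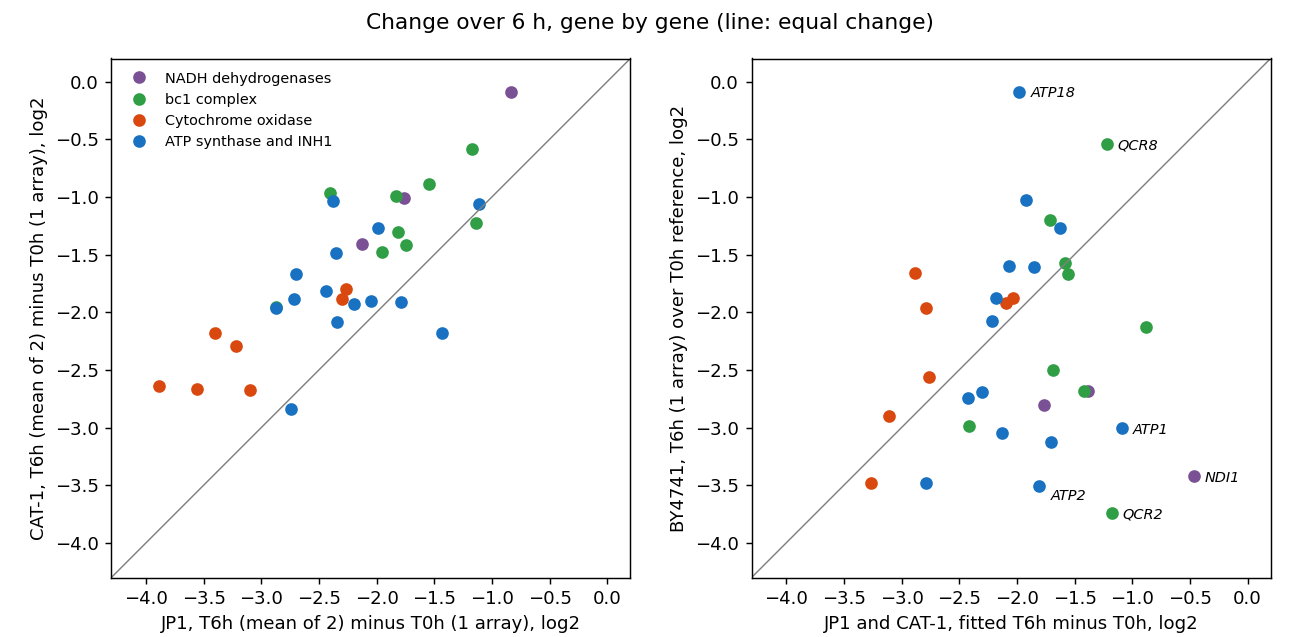
Left, the T6h minus T0h log2 difference of each gene in JP1 (horizontal) and CAT-1 (vertical), each from the mean of 2 T6h arrays and 1 T0h array. Right, the fitted difference over both strains (horizontal) against the log2 ratio of the BY4741 T6h array to the BY4741 T0h reference (vertical). Points are genes, coloured by complex, and the line marks equal change. On the left 29 of 33 genes lie above the line, and on the right NDI1, QCR2, ATP1 and ATP2 lie furthest below it.

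The change over 6 h was then set against that of BY4741, in JP1 and CAT-1 together. In BY4741 this change is red over green on a single array, so a dye effect on a gene stays in it. In JP1 and CAT-1 it is a difference between such ratios, in which a constant dye effect cancels. Over the 33 members the median change was -2.27 in JP1, -1.79 in CAT-1 and -2.50 in BY4741. The order differed by complex: BY4741 had the lowest median in the NADH dehydrogenases (-2.81, against -1.76 in JP1 and -1.01 in CAT-1) and the highest in the oxidase (-1.96, against -3.22 and -2.30). In the bc1 complex it had -2.13 against -1.81 and -1.22, and in the ATP synthase -2.39 against -2.35 and -1.90. The change in BY4741 was further below 0 than in both industrial strains for 3 of 3 NADH dehydrogenases, 5 of 9 bc1 subunits, 0 of 7 oxidase subunits and 5 of 14 ATP synthase genes, 13 of 33 in all, and for 2380 of the 5938 genes tested.

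In the test of this difference 4 members were called, all with a smaller fall in JP1 and CAT-1, where 11.7% of all genes were called in either direction. They were NDI1 at 2.96 ± 0.45 (adjusted p = 0.00930), QCR2 at 2.56 ± 0.48 (adjusted p = 0.0163), ATP1 at 1.92 ± 0.45 (adjusted p = 0.0335) and ATP2 at 1.70 ± 0.45 (adjusted p = 0.0438). The share among the members was thus near that over all genes. QCR2 measured -2.72 and -2.29 in JP1, -2.76 and -2.32 in CAT-1 and -3.74 in BY4741 at T6h. ATP2 started at -0.46 in PE-2, -0.76 in JP1 and -0.75 in CAT-1, and reached -2.25 and -2.14 in JP1, -3.08 and -2.77 in CAT-1 and -3.51 in BY4741. At T0h these genes stood at -1.15, -1.06, -0.62 and -0.66 against BY4741, a comparison that shares the JP1 and CAT-1 T0h arrays with this one. A dye effect on a gene would enter both comparisons, and in neither can it be told apart from a strain difference. The 4 calls rested on few arrays: 0 members were called without CAT-1 T6h replicate 2 or without CAT-1 T6h replicate 5, and 0 under the scanner's processed signals, without background correction or under median centring. At the opposite end ATP18 had the value -1.89 ± 0.63 (adjusted p = 0.0858).

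Other genes of respiration, listed by their role, held some called lower with the subunits, some called higher and many that were not called. All 4 genes of succinate dehydrogenase, which feeds electrons from succinate to ubiquinone, fell over the 8 arrays, where SDH2 fell by 3.14 ± 0.31 (adjusted p = 8.94e-05), SDH3 by 2.11 ± 0.46, SDH4 by 2.00 ± 0.38 and SDH1 by 1.64 ± 0.41. COX5A, the aerobic isoform of oxidase subunit 5, fell by 3.88 ± 0.28 and COX5B, the hypoxic isoform, rose by 3.55 ± 0.47 (adjusted p = 1.87e-05 and 0.000787). CYC1, the main cytochrome c gene, fell by 1.64 ± 0.42 (adjusted p = 0.0209), and CYC7, the minor isoform, was at 1.15 ± 0.97 (adjusted p = 0.461). In the fit of JP1 and CAT-1 together CYC7 was at 1.40 (adjusted p = 0.0410) and CYC1 at -1.13 (adjusted p = 0.0540). The CYC7 value came mostly from CAT-1, which changed by 2.39 from -0.58 on its single T0h array. JP1 was already at 2.42 at T0h and changed by 0.40, and the BY4741 T6h array was at -1.54.

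Genes that build the complexes mostly were not called. Of 45 genes for assembly, translation and regulation of the oxidase, the bc1 complex and the ATP synthase, 4 fell, 2 rose and 39 did not pass the test. Their median was -0.21, and 38 of the 45 had a higher value than NDI1, the member with the smallest difference. Among all 5938 genes tested, 5009 were not called, so the share not called among the 45 was near that over all genes. For the oxidase list of 24, COX15, for heme A synthesis, fell by 1.66, COX20 by 1.45 and COA1 by 1.25, while PET122 and PET54, both needed for translation of the mitochondrial COX3 message, rose by 5.40 and 1.31. In the bc1 list of 9, CBP4 fell by 2.20, and of the 12 ATP synthase genes 0 were called by limma, with 5 at an unadjusted p under 0.05. Over all 5938 genes, 1819 had an unadjusted p under 0.05 in this limma test, and 577 were called higher and 352 lower. In JP1 and CAT-1 alone 8 of the 45 fell and 3 rose, and 28 had a higher value than NDI1.

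**Figure D5:**
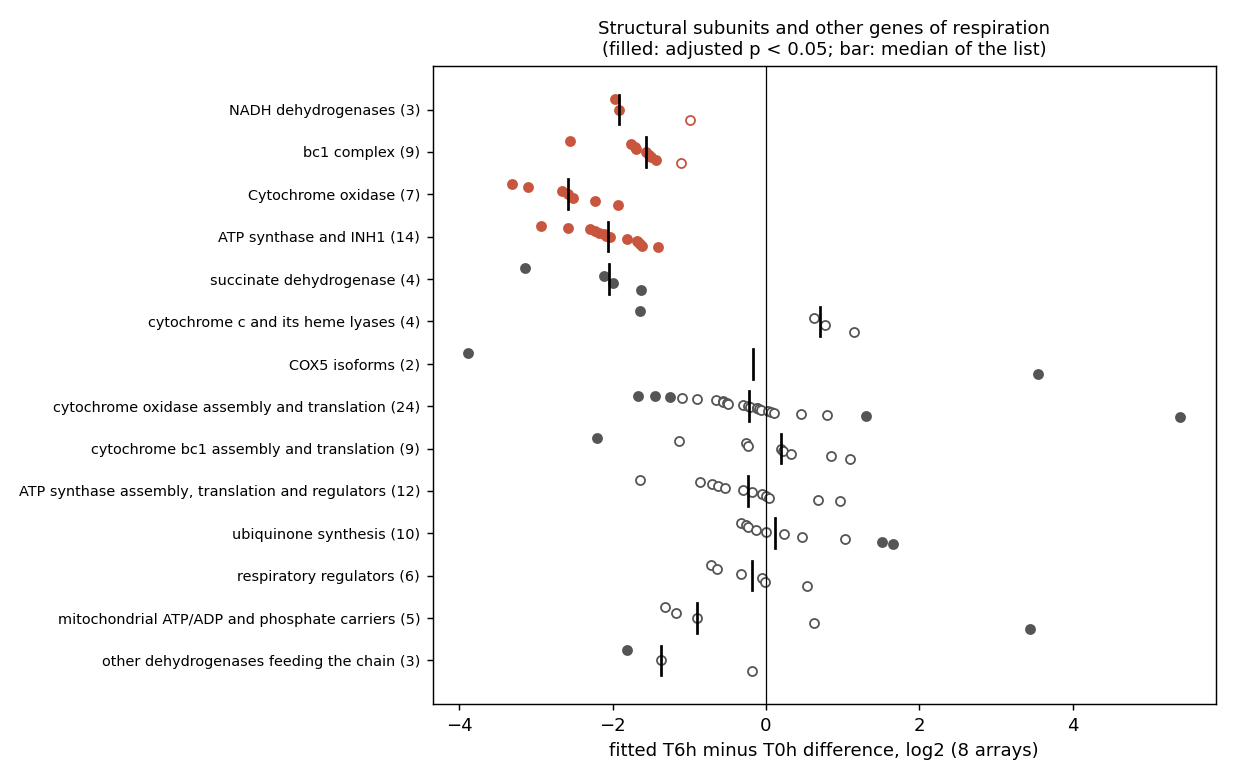
Fitted T6h minus T0h log2 difference over the 8 arrays (horizontal axis) of the genes of each list (vertical axis, number of genes in parentheses), red for the 4 groups of members and grey for the other lists, filled where the adjusted p is under 0.05, with a bar at the median. The members lie between -3.32 and -0.99, and the assembly genes spread on both sides of 0.

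The 10 genes of ubiquinone synthesis had 2 that rose, COQ1 by 1.66 and COQ6 by 1.52, and 0 that were called lower. Of all 5938 genes 577 were called higher and 352 lower. Of the 6 regulator genes 0 were called by limma, with 1 at an unadjusted p under 0.05, as had 1819 of all 5938 genes. HAP4, the glucose-regulated subunit of the Hap complex, was at -0.71 ± 0.32 (adjusted p = 0.160). Among 5 mitochondrial carriers of ATP, ADP and phosphate PIC2, which carries phosphate and copper, rose by 3.45 and none was called lower. The difference was negative for 3 of the 5, with a median of -0.91. In JP1 and CAT-1 alone 1 carrier was called higher and 1 lower. Of 3 other dehydrogenases that feed the chain, GUT2, the mitochondrial glycerol-3-phosphate dehydrogenase, fell by 1.82.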

How the data were processed

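Spot intensities were deposited as scanner output, quantified with Agilent Feature Extraction 10.10.1.1 per the file headers. The same deposited files hold log10 ratios and marks for outlier, dim and saturated spots. The deposited value table, made with limma per the submitters' processing notes, holds other values whose scale and direction are not stated. Not all of its columns follow their arrays (see the correlations in the report), so it was used in no comparison. The genome build is not given in the sources used here, and no sequences or coordinates are printed. Median signals were background-corrected with normexp (offset 50) and loess-normalised within each array, with control spots at weight 0 and marked spots left out; the 2 spots of a probe were averaged. A probe was kept when its red or green signal was well above background on 3 or more arrays, which left 5938 of 6256. The log2 ratios were tested with limma 3.58.1 (R 4.3.3), two-sided, with Benjamini-Hochberg adjustment over all genes kept and a threshold of 0.05, in 7 comparisons. Scripts were tested on simulated data. Standard errors are moderated. Symbols were taken from a RefSeq table, which held 5756 of the genes. The number of arrays limits the precision. Members, lists and comparisons were chosen with earlier results of these data known. Values in every array are given for the members with the 2 largest and the smallest differences per complex, for INH1 and for up to 4 members called in a strain comparison. From each other list up to 3 called genes with the largest differences are named, besides HAP4, CYC1, CYC7 and succinate dehydrogenase. Alternatives were other background corrections, normalisations, filters, the red channel alone, the slide, and leaving out each array. Replicate numbers did not pair the samples: same-numbered T0h and T6h arrays are of different strains.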

Additional observations from a re-analysis of the deposited data

Results flagged for a closer look

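Among the 5 T6h arrays 2 values stood apart from the rest of their gene. COX9 in CAT-1 replicate 2 was at -1.37, above the other 4 arrays, and ATP1 in BY4741 was at -3.01, below the other 4. Chance marks about 1 in 20 such groups, and 37 were examined. The change over 6 h differed between BY4741 and JP1 with CAT-1, by the test of the difference itself, in 4 members, where 11.7% of all genes were called. No member was called higher with processed signals, without background correction, with median centring, or without CAT-1 T6h replicate 2 or replicate 5. NDI1 differed by 2.96, QCR2 by 2.56, ATP1 by 1.92 and ATP2 by 1.70 on the log2 scale, all with the larger fall in BY4741. The share among the members was near that over all genes, and BY4741 was measured on 1 T6h array. A dye effect on a gene stays in the BY4741 change and cannot be told apart from a strain difference here.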

How the results depend on the processing

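No called result turned its direction, but untested medians did. With median centring, the NADH dehydrogenases in CAT-1 minus JP1 went from 0.51 to -0.26, the ATP synthase from 0.45 to -0.13 in the change of CAT-1 minus that of JP1 and from -0.18 to 0.0017 at T0h, and the oxidase from -0.20 to 0.15 in the change against BY4741. With processed signals, the ATP synthase went from 0.14 to -0.25 against BY4741 at T6h and from 0.10 to -0.27 in the change against BY4741, where all members went from 0.11 to -0.19 (-0.0052 under the strict filter). Without CAT-1 T6h replicate 2 that ATP synthase median was -0.0094. Without JP1 T0h replicate 2 or CAT-1 T0h replicate 3, CAT-1 minus JP1 went from -0.04 to 0.07 over all members, from -0.21 to 0.08 in the oxidase and from -0.04 to 0.05 in the ATP synthase; with median centring all members were at -0.93. All members measured had a negative T6h minus T0h difference under each of the 19 alternatives over all arrays and the 16 in JP1 and CAT-1, and the count called lower ran from 22 (median centring) to 32 over all arrays. Leaving out 1 array gave 23 to 32 members lower over all arrays. In JP1 and CAT-1 the members lower were 17 under median centring and 16 to 31 leaving out 1 array, with a median of -2.27 to -1.79. At T0h 2 members were higher with processed signals and 1 lower with median centring; leaving out 1 array gave 0 to 8 higher and 0 to 6 lower. Against the change of BY4741, 0 members were higher with processed signals, without background correction and with median centring, and 8 higher and 2 lower of 31 under the strict filter on dim probes; leaving out 1 array gave 0 to 5 higher and 0 to 1 lower. Between CAT-1 and JP1 the red channel alone called 1 member lower and 1 higher.

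Counts over all genes moved more. For T6h minus T0h over all arrays, 929 genes became 439 with median centring, 1613 in the red channel alone and 292 under the strict filter, with 446 to 1126 leaving out 1 array. For JP1 and CAT-1, 1167 became 648 with processed signals, 507 without background correction, 339 with median centring, 2505 in the red channel alone and 370 under the strict filter, with 417 to 1174 leaving out 1 array. The 1939 genes at T0h became 532 to 1937 leaving out 1 array. At T6h against BY4741, 0 became 196 in the red channel alone, 33 under the strict filter, 2 with slide as a block and 0 to 60 leaving out 1 array. For CAT-1 minus JP1, 6 became 1 with processed signals, 0 without background correction, 3 with median centring, 318 in the red channel alone, 39 under the strict filter, 0 on slide 1 alone and 0 to 106 leaving out 1 array. Their difference in change, 0, became 413 in the red channel alone, 35 under the strict filter and 0 to 50 leaving out 1 array. For the change against BY4741, 697 became 1 with processed signals, 0 without background correction, 2 with median centring, 310 under the strict filter and 2 to 1338 leaving out 1 array. For each strict-filter count given here 679 genes were tested, against 5938 in the main setting. Those counts were thus larger shares of the genes tested than in the main setting. The strict filter also shifted the median of all genes over all arrays to -0.26. Otherwise the cause of the moved counts was not tested.

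With the replicate block 28 members and 536 genes were called over all arrays, and NDE1, QCR7 and QCR9 missed the threshold; same-numbered arrays correlated at -0.07, -0.14 and -0.15 in their deviations, and the numbers do not pair the samples. The red channel alone on slide 1 was chosen after seeing the data. The deposited value table was not run, because not all of its columns follow their arrays. Green signals near background limit the ratios of slide 2.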
